A study of Macaca mulatta with 24 samples.

Results

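Axonemal dyneins are the motors of motile cilia, and the genes described here encode their subunits and the cytoplasmic proteins that assemble them. The members were the rows whose symbol begins with DNAH, DNAI, DNAL, DNAAF or ODAD and a digit, together with ZMYND10, LRRC6, CCDC39 and CCDC40, at a normalized count of 10 or more in at least 4 libraries. This gave 23 genes among 35432 rows, of which 14062 rows passed the same filter and were tested. All 23 rows with a matching name passed the filter. The rule uses gene names and a minimum value, although it was written with earlier results of these data known. No row bore the symbol CCDC40 or an ODAD symbol.

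The libraries came from primary tracheobronchial epithelial cells of 4 adult female rhesus macaques (S1 to S4), grown on inserts and differentiated with retinoic acid while their upper surface met the air (air–liquid interface). Smoke cultures received diluted whole wood smoke and air cultures filtered air for 6 hours a day, over 1 day, over 5 days, or over 5 days and then none for 7 days (recovery). Each of the 6 groups held 4 libraries, 1 from each animal: smoke and air at 1 day, smoke and air at 5 days, and smoke and air at recovery. Animals S1, S2, S3 and S4 had ages of 5463, 2930, 2238 and 1128 days, so an effect of age is inseparable from that of the animal. Every culture, air cultures included, had retinoic acid in the medium, and the recovery air cultures went through the same 5 days of filtered air and 7 days without exposure.

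In an airway cilium, rows of outer and inner dynein arms are fixed along the microtubule doublets, and their heavy chains hydrolyse ATP to slide the doublets past each other. Intermediate and light chains hold each arm together and regulate it, docking proteins and the CCDC39–CCDC40 ruler set where arms attach, and assembly factors fold and join the subunits with chaperones in the cytoplasm before transport into the cilium. Loss of many of these genes causes primary ciliary dyskinesia in humans, in which the airway clears mucus poorly. Many of these transcripts are carried by multiciliated cells. For such genes a lower level in cultures of mixed cells may mean fewer ciliated cells or less RNA per ciliated cell, which cannot be told apart here. Which cells carried each member was not measured, and not every member need be limited to ciliated cells.

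By role, 4 members were outer arm heavy chains: DNAH5, DNAH9 and DNAH11, which drive the airway's outer arms, and DNAH8, a close relative of DNAH5 known mainly from sperm. Another 7 were inner arm heavy chains, of which DNAH2 and DNAH10 form the f-type arm and DNAH1, DNAH3, DNAH6, DNAH7 and DNAH12 belong to the other inner arms. The remaining 12 were the outer arm intermediate chains DNAI1 and DNAI2, the light chains DNAL1 and DNAL4, the ruler protein CCDC39, and 7 assembly factors (LRRC6, DNAAF1, DNAAF2, DNAAF4, DNAAF5, DNAAF6 and ZMYND10). The reference gene table gave dynein symbols to 11 further rows that the table's own names do not show. Among these were the docking genes CCDC151 (ODAD3), ARMC4 (ODAD2) and TTC25 (ODAD4), and an unnamed row that is DNAAF3. They are not members, and the table's WDR63, WDR78, CASC1 and WDR92 are described with the related genes.

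All members except DNAH8 had a normalized count of 10 or more in all 24 libraries. DNAH8 reached 10 in 9 libraries, with values between 1.24 and 25.3, and so lay just inside the filter. The row that the reference table calls DNAH14 lay outside it, with a highest value of 1.11. Markers of ciliated cells were present in every library: FOXJ1, the master regulator of motile cilia, ran from 1217 to 10290 normalized counts, and SNTN, a ciliary tip protein, from 115.5 to 1161. Of markers of other cells, the immune genes PTPRC and MS4A1, the fibroblast genes LUM and DCN, and the endothelial genes CDH5 and CLDN5 had highest values of 1.69, 0, 0, 2.15, 0 and 1.11. Other genes on the same lists were present: the immune genes LYZ, CD68 and CD14 ran from 1471 to 4679, from 194 to 932 and from 41.1 to 259. The fibroblast gene PDGFRA ran from 339.8 to 685, and the endothelial genes VWF and PECAM1 from 50.9 to 121 and from 11.8 to 179.8.

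The library totals of normalized counts lay between 11837168 and 15200096, and 12927 to 13255 genes had a value of 10 or more in a library. The median correlation of a library's log2 values with the other libraries was 0.931 to 0.956 in 23 libraries. It was 0.860 in the 5-day S1 air library, which also stood apart for the members, and results that rest on it are also given with it left out. The 6 libraries of an animal deviated together from their group means (median correlation 0.612 over 60 pairs, range 0.303 to 0.804), against a median of −0.189 over 180 pairs from other animals. Differences were therefore tested with animal as a block in a limma fit of log2(normalized count + 1) over all 24 libraries. They are given as log2 differences on that scale with standard errors (SE), and a gene was called where its p, adjusted by the Benjamini-Hochberg method across the 14062 genes, was under 0.05.

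Most of the variation of the members lay between animals. Animal accounted for a median of 70.5% of a member's sum of squares (37% to 88.2%) and group for 10.1%, whereas over all genes tested the medians were 27.1% for animal and 30.7% for group. S3 had the highest value of the 4 animals for 17 to 22 of the 23 members in each group. S1 had the lowest value for 22 members in smoke and 23 in air at 1 day, but for 4 members in smoke and 15 in air at recovery, where S2 was lowest for 18 members in smoke and 8 in air. The geometric mean of the normalized count + 1 over 6 libraries was 1.36 to 8.12 times as high in S3 as in S1 (median 3.73 times).

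**Figure D1:**
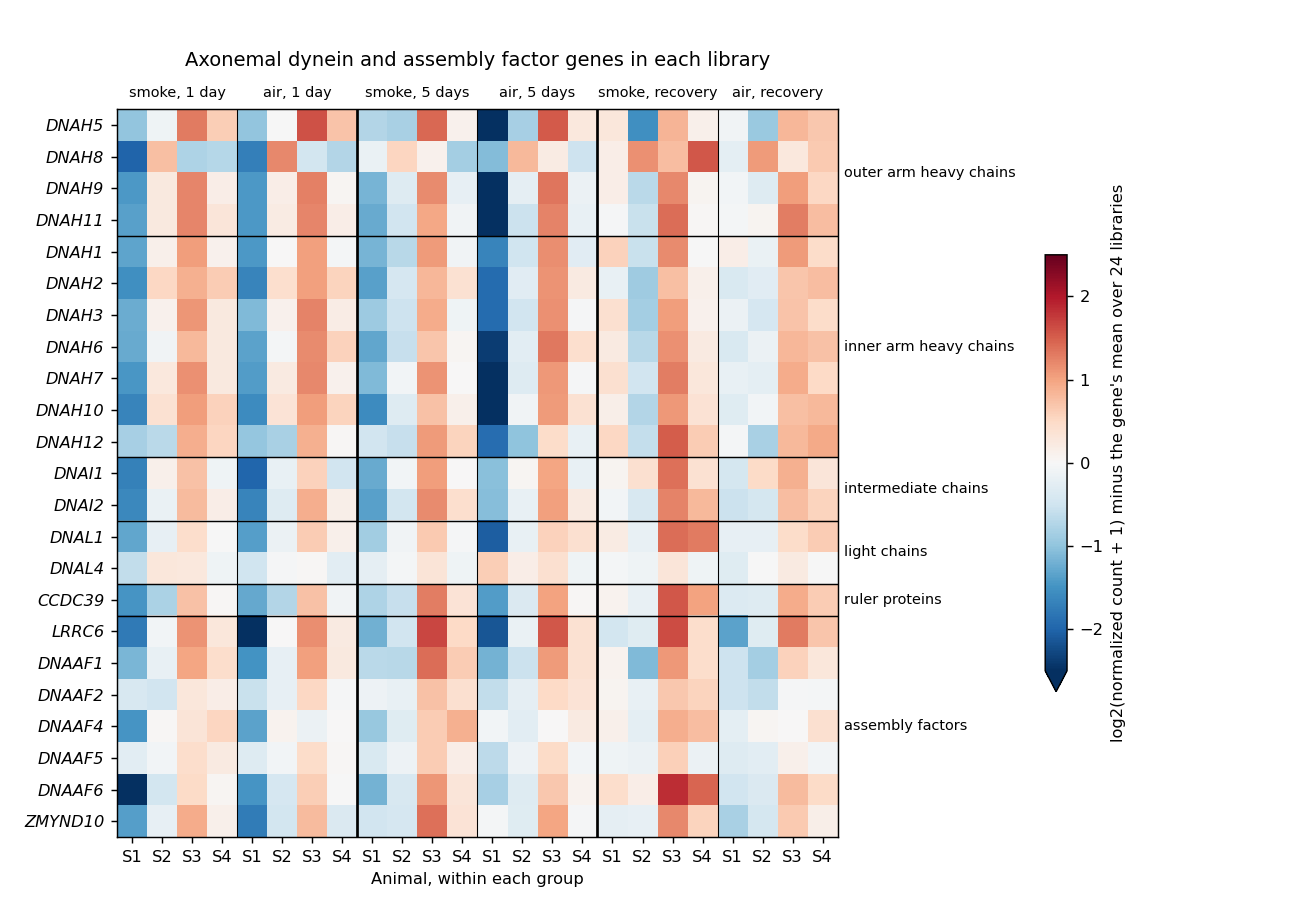
Each cell is the log2(normalized count + 1) of 1 of 23 genes in 1 of 24 libraries, minus the gene's mean over the libraries (values under −2.5 take the darkest blue). Columns run by group and animal, with smoke left of air at each time. The S1 columns at 1 day are blue and the S3 columns red, and the 5-day S1 air library is darkest in the heavy chain rows.

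The members also varied together across libraries, which share animals, groups and 1 normalization. The correlation of a member's log2 values with the mean of the other 22 members over the 24 libraries was 0.835 to 0.963 for 19 members. It was 0.794 for DNAAF2, 0.726 for DNAAF4, 0.417 for DNAL4 and 0.384 for DNAH8. DNAL4 varied least, with a highest value 2.35 times its lowest, against 30.6 times for DNAH5. DNAAF5 and DNAAF2 also had narrow ranges, of 2.44 and 2.55 times.

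The 5-day S1 air library had low heavy chain values. DNAH5 stood at 209.7 normalized counts there, against 1071 to 2565 in the other 5 libraries of S1. DNAH7 stood at 88.7, against 360 to 1304, and DNAH11 at 114.5, against 385 to 1027. For 10 of the 11 heavy chains the value was below that of every other library of the animal, DNAH8 being the exception. Of the 12 other members, DNAL1, DNAAF2 and DNAAF5 were below every other library of S1, and DNAL4 and ZMYND10 were above every other. Set against the mean of the other 5 libraries of S1, the median over the heavy chains was −1.56 on the log2 scale and that over the other members −0.17. The next lowest heavy chain median of a library was −0.48, in the smoke recovery library of S2.

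**Figure D2:**
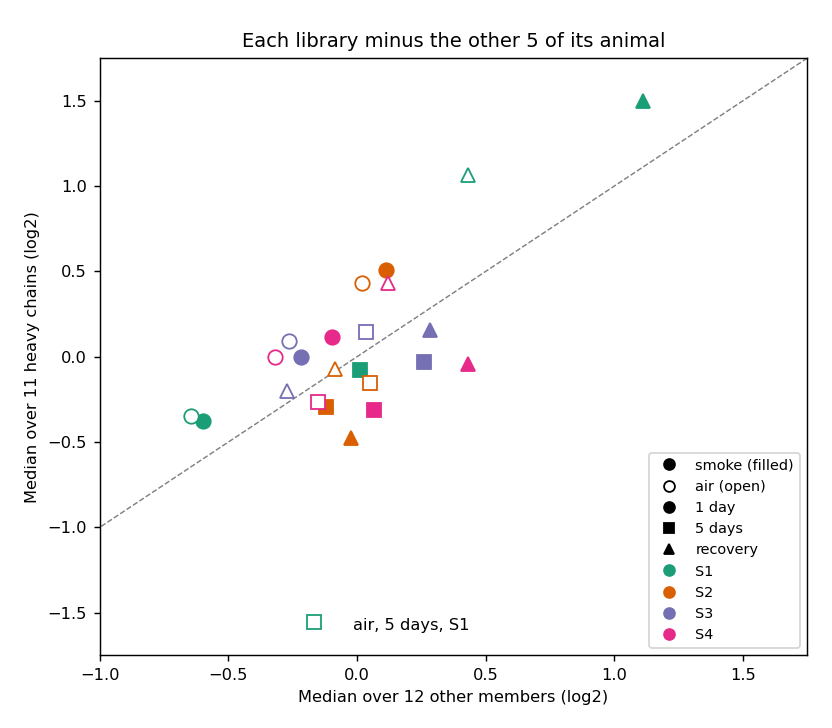
Each point is 1 of 24 libraries: the vertical axis gives the median log2 difference of the 11 heavy chain genes from the mean of the animal's other 5 libraries, and the horizontal axis the same for the 12 other members. The dashed line marks equal values. The 5-day S1 air library lies at −1.56 on the vertical axis and at −0.17 on the horizontal one, and the smoke recovery library of S1 has the highest value on both axes.

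After 1 day of exposure no dynein gene was called. The median smoke-minus-air log2 difference was 0.034 over the members and 0.0037 over all genes tested, 14 members lay above 0 and 9 below, and none had an unadjusted p under 0.05. Among all genes tested 0.0782% were called at 1 day. Single heavy chains differed by −0.45 to 0.51 on the log2 scale in single animals, and their median by −0.058 to 0.085. DNAH5 was lower with smoke in 4 of 4 animals (−0.30 to −0.0038), and DNAH1 and DNAH12 were higher in 4 of 4. DNAH9 was among the closest and stood at 825, 2641, 5200 and 2496 normalized counts in smoke cultures of S1 to S4, against 820, 2511, 5302 and 2311 in air cultures.

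The intermediate chain gene DNAI1 and the assembly factor gene ZMYND10 were higher with smoke in all 4 animals at 1 day. DNAI1 had 148, 522, 800 and 442 normalized counts in smoke cultures of S1 to S4, against 121, 421, 714 and 343 in air cultures. ZMYND10, whose protein stabilizes heavy chains during assembly, had 283, 636, 1393 and 806 in smoke cultures, against 219, 532, 1262 and 571 in air cultures. The values overlapped between the groups because the animals lay far apart, while the difference had the same sign in each. Their log2 differences were 0.28 ± 0.19 and 0.32 ± 0.21 (SE), and limma gave an adjusted p of 1 for both. Fitted on the 8 libraries of 1 day alone, with animal as a block, these 2 genes were the only members called (adjusted p = 0.0137 for DNAI1 and 0.00682 for ZMYND10), where 9.11% of all genes were called.

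The other members with the widest difference of their role at 1 day had standard errors as large as their differences or larger. DNAH8 differed by −0.25 ± 0.38 (SE), DNAH12 by 0.20 ± 0.24, DNAL4 by 0.14 ± 0.15 and CCDC39 by −0.029 ± 0.16, and the adjusted p was 1 for each. DNAH8 values were 1.24, 13.9, 4.23 and 4.47 in smoke cultures, against 1.72, 19.4, 5.47 and 4.36 in air cultures, so most lay under 10. DNAL4 had 207, 387, 385 and 294 in smoke cultures, against 226, 312, 323 and 265 in air cultures, and was higher with smoke in 3 of 4 animals. The differences of the remaining genes were small beside those between animals. DNAH12 had 38.3, 42.7, 130.3 and 99.5 in smoke cultures, against 34.5, 38.9, 128 and 69.8 in air cultures. CCDC39 had 114, 185, 529 and 325 in smoke cultures, against 130.1, 191, 529.7 and 299 in air cultures.

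After 5 days of exposure again no member was called, and 1 of 23 had an unadjusted p under 0.05 in the limma fit, where 1.69% of all genes were called. The median log2 difference was 0.17 over the members and 0.013 over all genes, with 19 members above 0 and 4 below. Without the 5-day S1 air library the median over the members was 0.0053. By animal, the heavy chains had a median difference of 1.42 in S1, where all 11 lay above 0, against −0.10 in S2, −0.16 in S3 and −0.064 in S4.

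DNAH5, the outer arm heavy chain often mutated in human primary ciliary dyskinesia, had 1272, 1206, 5753 and 2293 normalized counts in 5-day smoke cultures of S1 to S4. In 5-day air cultures it had 209.7, 1188, 6083 and 2554. The groups were apart only in S1, in which the air value was the low one described above. Its log2 difference was 0.60 ± 0.47 (SE, adjusted p = 0.490 by limma), and −0.11 without that library.

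DNAH12, an inner arm heavy chain, was the member with the smallest p at 5 days. It had 48.9, 46.0, 145 and 102 normalized counts in smoke cultures, against 17.6, 33.7, 95.1 and 60.6 in air cultures. It was higher with smoke in 4 of 4 animals, by 1.42 on the log2 scale in S1, 0.44 in S2, 0.61 in S3 and 0.74 in S4. The fitted difference was 0.80 ± 0.24 (SE, adjusted p = 0.0823 by limma), and 0.55 with an adjusted p of 0.128 without the 5-day S1 air library. No other inner arm heavy chain differed in the same direction in all 4 animals apart from DNAH7, with a difference of 2.35 in S1 and of 0.25, 0.031 and 0.032 in S2 to S4.

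The smaller subunits and the assembly factors gave no call at 5 days either. DNAAF1, a leucine-rich-repeat assembly factor, had 348, 342, 1459 and 859 normalized counts in smoke cultures, against 243, 380, 1158 and 724 in air cultures (log2 difference 0.24 ± 0.26 SE, adjusted p = 0.619 by limma). CCDC39 had 188, 213, 777 and 404 in smoke cultures, against 121, 249, 639 and 324 in air cultures (0.25 ± 0.16, adjusted p = 0.406). With the 5-day S1 air library left out, the differences were 0.12 for DNAAF1, 0.11 for CCDC39, −0.072 for DNAL4 and −0.061 for DNAI2. Both DNAAF1 and CCDC39 were higher with smoke in S1, S3 and S4 and lower in S2. DNAI2 had 162, 306, 949 and 565 in smoke cultures, against 199.5, 371, 855 and 488 in air cultures. DNAL4 had 271, 307, 401 and 295 in smoke cultures, against 486, 359.7, 419 and 294 in air cultures. DNAI2 differed by −0.052 ± 0.21 and DNAL4 by −0.28 ± 0.15, with S1 accounting for −0.84 in DNAL4 and the other 3 animals for −0.23 to 0.0054.

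**Figure D3:**
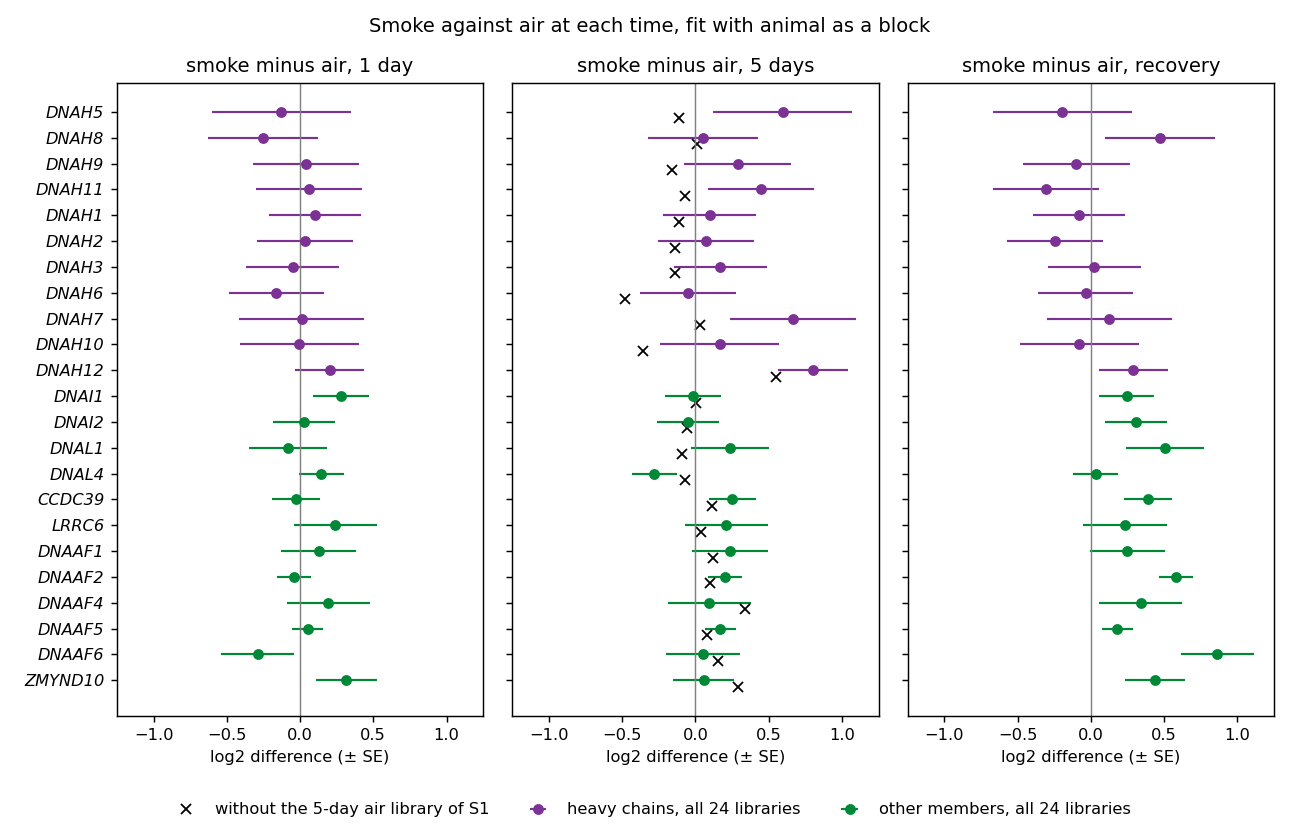
Points are the fitted smoke-minus-air log2 differences of the 23 genes at 1 day, 5 days and recovery, with bars of 1 SE, from the limma fit of 24 libraries with an animal block; crosses at 5 days show the values without the 5-day S1 air library. At recovery the 12 genes other than heavy chains all lie above 0, with DNAAF2 at 0.58 and DNAAF6 at 0.86. At 5 days the crosses of most heavy chains lie left of their points.

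At recovery, 7 days after the last exposure, the assembly factor gene DNAAF2 was higher in smoke-exposed cultures and was the only member called. In the same limma fit 3.41% of all genes tested were called, 1.14% as higher and 2.28% as lower. The median log2 difference was 0.23 over the members and 0.0083 over all genes, 16 members lay above 0 and 7 below, and 4 had an unadjusted p under 0.05: DNAAF2, DNAAF6, CCDC39 and ZMYND10.

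DNAAF2 encodes a PIH-domain protein, kintoun, that works with chaperones to preassemble outer and inner arms. It had 259.7, 219, 396 and 364 normalized counts in smoke recovery cultures of S1 to S4, against 174, 162, 243 and 239 in air recovery cultures. The smoke value was the higher one in each animal, by 0.43 to 0.70 on the log2 scale, and the ranges of the groups overlapped between 219 and 243. The means were 309.7 ± 83.9 with smoke and 204 ± 42.4 in air (SD, n = 4 each). The fitted difference was 0.58 ± 0.11 (SE), a 1.495-fold level, with an adjusted p of 0.00851 by limma.

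The call of DNAAF2 rested on comparing cultures within an animal. Without the block its adjusted p was 0.601, and with animal as a random effect 0.0598. It was called in 24 of 24 fits that left out a single library, and in 1 of 4 fits that left out an animal (adjusted p = 0.00135 without S1, 0.0754 without S2, 0.152 without S3 and 0.159 without S4). The log2 difference stayed between 0.51 and 0.64 over these 28 omissions. Without the 5-day S1 air library the adjusted p was 0.000347, in a fit that called 18.8% of all genes.

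DNAAF6, another PIH-domain assembly factor, had the widest difference of all members at recovery. It had 216, 178, 571 and 435 normalized counts in smoke cultures, against 114, 124, 276 and 221 in air cultures. Smoke was above air in 4 of 4 animals, by 0.91, 0.52, 1.05 and 0.97 on the log2 scale, although the S1 and S2 smoke values lay within the range of the air cultures. The fitted difference was 0.86 ± 0.25 (SE, adjusted p = 0.0661 by limma), 1.82-fold, and it passed the threshold without the 5-day S1 air library (adjusted p = 0.0142).

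Of the other 5 assembly factors none was called at recovery, and all had fitted differences above 0. ZMYND10 had 627, 639, 1680.1 and 1077 normalized counts in smoke cultures, against 419.6, 543, 1162 and 809.5 in air cultures (log2 difference 0.44 ± 0.21 SE, adjusted p = 0.278). DNAAF4, which bridges assembly intermediates to chaperones, differed by 0.34 ± 0.28, DNAAF1 by 0.25 ± 0.26, LRRC6, the partner of ZMYND10, by 0.23 ± 0.28, and DNAAF5 by 0.18 ± 0.11. In these 4 genes at least 1 animal had a lower value with smoke than in air.

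Light chain, ruler and intermediate chain genes lay above 0 at recovery as well, without a call. DNAL1, a light chain bound to an outer arm heavy chain, had 307, 233, 698 and 651 normalized counts in smoke cultures, against 229, 229.9, 364 and 414 in air cultures. S3 and S4 were apart by 0.94 and 0.65 on the log2 scale and S2 by 0.018 (fitted difference 0.51 ± 0.27 SE, adjusted p = 0.341 by limma). CCDC39 had 339.8, 279, 937 and 645 in smoke cultures, against 252, 256, 608 and 497 in air cultures, higher with smoke in 4 of 4 animals (0.39 ± 0.16, adjusted p = 0.218). DNAI2 had 401, 316, 989 and 741 in smoke cultures, against 289.9, 308, 715 and 618 in air cultures, also higher in 4 of 4 (0.31 ± 0.21, adjusted p = 0.496). DNAL4 lay near 0: it had 309, 296, 395 and 294 in smoke cultures, against 258, 317, 371 and 318 in air cultures, and differed by 0.034 ± 0.15.

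Fitted on the 8 recovery libraries alone with animal as a block, 6 members were called, all higher with smoke, where 18.8% of all genes were called and 8.93% were called higher. These were DNAAF6 (adjusted p = 0.000456), DNAAF2 (0.00203), ZMYND10 (0.00235), CCDC39 (0.0127), DNAL1 (0.0157) and DNAI2 (0.0291). Their fitted differences were those given above, and the SE of DNAAF6 was 0.11 in this fit instead of 0.25. None of the 11 heavy chains was called in it, the smallest adjusted p among them being 0.103 for DNAH11.

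**Figure D4:**
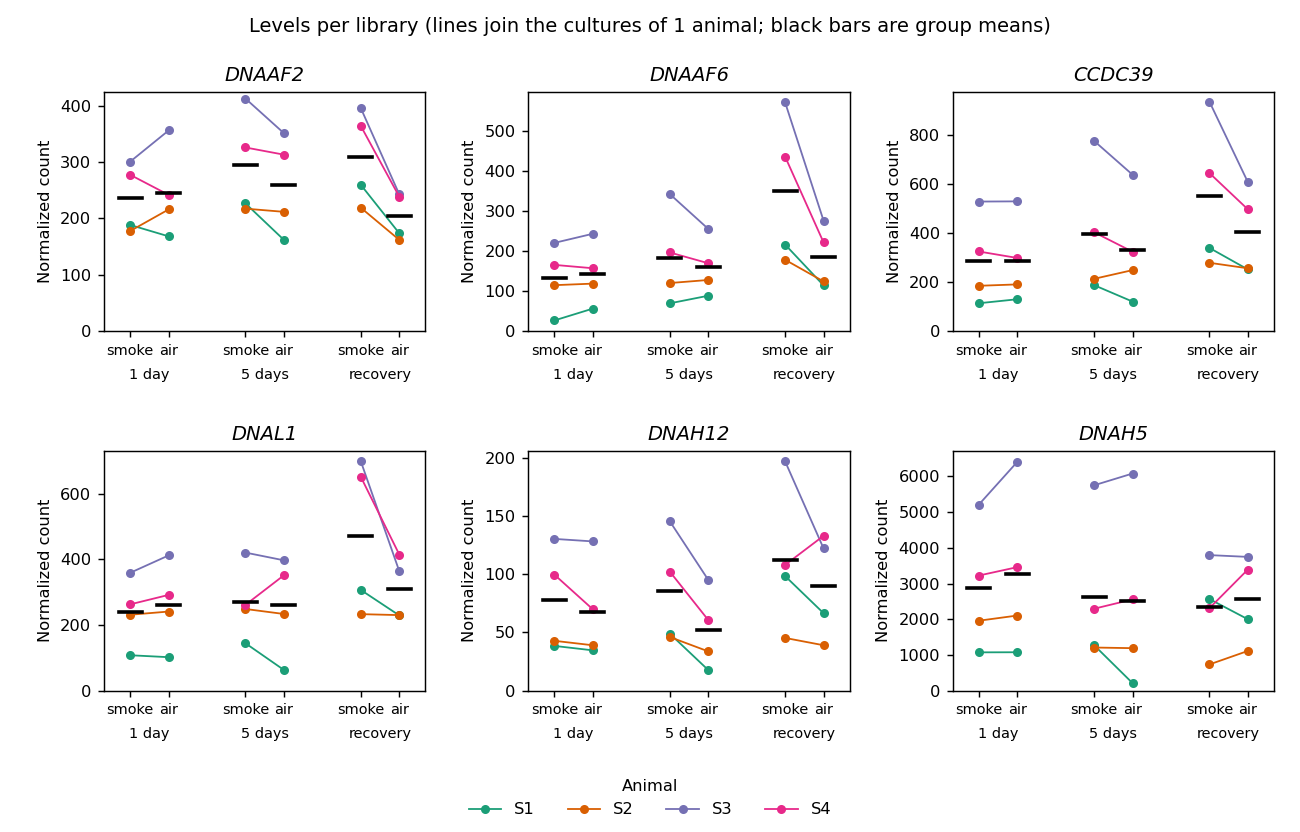
Normalized counts of 6 genes in each library, with smoke left of air at each time, a line joining the 2 cultures of 1 animal, and black bars for group means (n = 4). For DNAAF2, DNAAF6 and CCDC39 all 4 lines at recovery are higher at the smoke end, while for DNAH5 they run in both directions, and the S1 air value of DNAH5 at 5 days is 209.7.

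The heavy chains differed from the other members at recovery, a split drawn after the values had been seen and not tested. Their median log2 difference was −0.080, with 4 above 0 and 7 below, against a median of 0.32 over the other 12 members, which all lay above 0. DNAH5 had 2565, 732, 3796 and 2308 normalized counts in smoke cultures of S1 to S4, against 1999, 1110.4, 3747 and 3392 in air cultures. DNAH11 had 1027, 710.3, 2733 and 1057 in smoke cultures, against 1003, 1095, 2537 and 1784 in air cultures. Both were higher with smoke in S1 and S3 and lower in S2 and S4, so the fitted differences of −0.19 ± 0.47 and −0.31 ± 0.36 (SE) came from animals that went opposite ways.

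That division between animals ran through nearly all heavy chains. All 11 lay above 0 in S1 (median 0.41) and in S3 (median 0.30), while 2 of 11 did in S2 (median −0.43) and 1 of 11 in S4 (median −0.45). The exceptions were DNAH8, which was higher with smoke in all 4 animals (8.94, 18.7, 14.1 and 25.3 in smoke cultures, against 6.54, 17.7, 9.63 and 13.0 in air cultures), and DNAH12, which was higher in S1, S2 and S3. The other members had medians of 0.49 in S1, 0.029 in S2, 0.52 in S3 and 0.32 in S4. Within every animal the median of the other members was thus above that of the heavy chains, by most in S2 and S4. In S1 and S3 all 23 genes were higher with smoke.

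DNAH12 had 98.3, 45.2, 197 and 108 normalized counts in smoke recovery cultures, against 66.5, 38.9, 122 and 133 in air recovery cultures. Its difference was 0.29 ± 0.24 (SE, adjusted p = 0.583 by limma), and that of DNAH8 0.47 ± 0.38 (adjusted p = 0.569). The remaining inner arm heavy chains lay between −0.25 for DNAH2 and 0.13 for DNAH7.

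**Figure D5:**
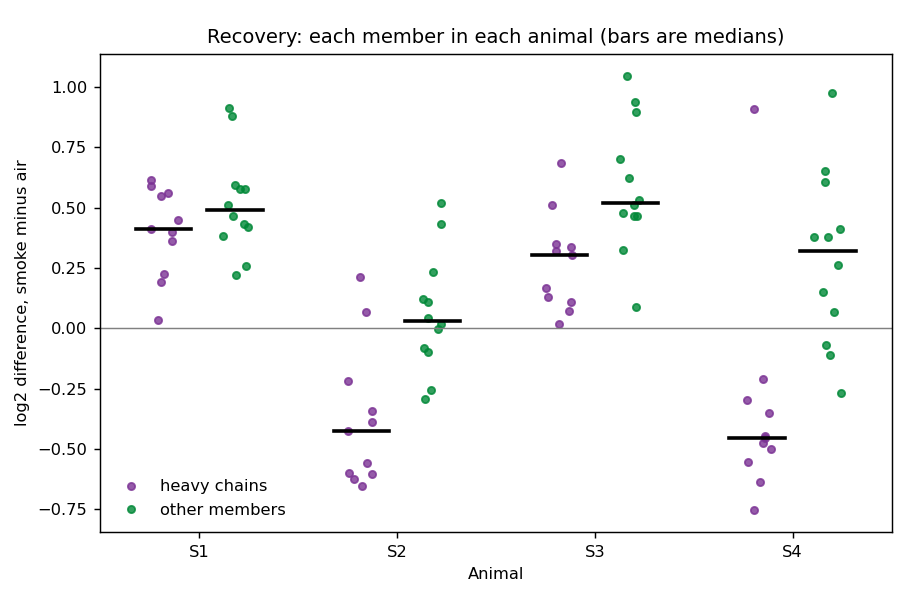
Each point is the smoke-minus-air log2 difference of 1 gene in 1 animal at recovery, with heavy chains left and other members right for each animal, and bars at the medians. Both sets lie above 0 in S1 and S3; in S2 and S4 the heavy chain medians are −0.43 and −0.45 and those of the other members 0.029 and 0.32.

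The smoke effect was also compared between times. From 1 to 5 days no member was called for a change (0 with an unadjusted p under 0.05 by limma), where 0.0427% of all genes were called. From 5 days to recovery no member was called either, where 3.56% of all genes were, and 2 had an unadjusted p under 0.05. The effect on DNAAF2 was larger at recovery than at 5 days by 0.38 ± 0.16 (SE, adjusted p = 0.193), and by 0.48 without the 5-day S1 air library (adjusted p = 0.0299). The effect on DNAAF6 was larger by 0.81 ± 0.35 (adjusted p = 0.198), with the same sign in 4 of 4 animals, and by 0.71 without that library (adjusted p = 0.203). Both comparisons use the 5-day libraries, in opposite directions.

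Over time in air cultures, DNAL4 and ZMYND10 were called higher at 5 days than at 1 day, and DNAH12 and DNAH11 higher at recovery than at 5 days. The percentages of all genes called were 19.4% and 28.4%. Without the 5-day S1 air library the differences of DNAL4 and ZMYND10 between 5 days and 1 day went below the threshold (0.25 with an adjusted p of 0.133 and 0.36 with 0.159, instead of 0.46 with 0.0450 and 0.60 with 0.0494). DNAH12 averaged 67.8 ± 43.1, 51.8 ± 33.9 and 90.1 ± 44.9 normalized counts in air cultures at 1 day, 5 days and recovery (SD, n = 4 each). Its log2 difference between recovery and 5 days was 0.88 ± 0.24 (SE, adjusted p = 0.0109), and 0.63 without that library (adjusted p = 0.0310). DNAH11 had 1.18 ± 0.36 (adjusted p = 0.0222), and 0.66 without it (adjusted p = 0.0628).

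DNAAF2 ran the other way in air cultures, with means of 246 ± 79.8, 259.6 ± 87.8 and 204 ± 42.4 normalized counts at 1 day, 5 days and recovery (SD, n = 4 each). Its recovery level lay below its 5-day level by −0.30 ± 0.11 on the log2 scale (SE, adjusted p = 0.0555 by limma), and by −0.40 without the 5-day S1 air library (adjusted p = 0.00620). The means in smoke cultures were 236 ± 62.1, 296 ± 92.2 and 309.7 ± 83.9 in the same order. Between recovery and 5 days DNAAF2 differed by 0.076 ± 0.11 in smoke cultures.

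In smoke cultures no member was called between 1 and 5 days, where 3.48% of all genes were and 3 members had an unadjusted p under 0.05. Between 5 days and recovery DNAAF6, CCDC39 and DNAI1 rose, where 8.06% of all genes were called. DNAAF6 averaged 132 ± 82.2, 182 ± 119 and 349.9 ± 186 normalized counts in smoke cultures at 1 day, 5 days and recovery (SD, n = 4 each), a log2 difference of 1.02 ± 0.25 between the last 2 (SE, adjusted p = 0.0163). CCDC39 averaged 288 ± 183, 395 ± 272 and 550.3 ± 304 (0.55 ± 0.16, adjusted p = 0.0445). DNAI1 differed by 0.62 ± 0.19 (adjusted p = 0.0499). All 3 were higher at recovery in 4 of 4 animals. Without the animal block none of the calls over time, in air or in smoke, passed. These comparisons share the recovery and 5-day smoke libraries with those of smoke against air.

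Among other genes of the axonemal dynein pathway, WDR92, a cochaperone of dynein assembly that the reference table names DNAAF10, was higher with smoke at 5 days. It had 274, 302, 499.9 and 335 normalized counts in 5-day smoke cultures, against 164, 201, 331 and 225 in 5-day air cultures. Each animal was higher with smoke, and the difference was 0.62 ± 0.098 (SE, adjusted p = 0.005 by limma), or 0.59 with an adjusted p of 0.0013 without the 5-day S1 air library. At recovery it had 257, 329, 465 and 318 in smoke cultures, against 304, 389, 403 and 351 in air cultures, and the fall of its smoke effect between these times was −0.73 ± 0.14 (adjusted p = 0.00624). In the fit over all libraries WDR92 was the only called gene at 5 days among 23 measured genes of a list of other dynein genes, where 1.69% of all genes were called. PIH1D1, a PIH-domain cochaperone, was called as well without the 5-day S1 air library (0.30 ± 0.075, adjusted p = 0.0205), where 6.26% of all genes were called. The list also holds docking, chaperone and nexin-link genes.

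At recovery no gene of that list was called in the fit over all libraries. Of its 23 genes 22 lay above 0, with a median of 0.35, and 11 had an unadjusted p under 0.05. The share of all genes under that cutoff is not given here, so the count of 11 describes the fit only. Without the 5-day S1 air library 8 were called, all higher, where 8.70% of all genes were called higher. Among them were DNALI1, an inner arm light intermediate chain (0.64 ± 0.20 SE, adjusted p = 0.0285), TTC12, an assembly factor (0.33 ± 0.093, adjusted p = 0.0159) and RUVBL2, a chaperone ATPase used in assembly (0.37 ± 0.084, adjusted p = 0.00482). With the 8 recovery libraries alone 14 were called, all higher, where 8.93% of all genes were called higher. The docking genes ARMC4, TTC25 and CCDC151 differed by 0.25 ± 0.34, 0.27 ± 0.26 and 0.26 ± 0.28 and were not called in the fit over all libraries.

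Cytoplasmic dynein genes, which encode the motor for transport in the cell body and within cilia, gave 1 call among 18 measured genes at recovery, where 3.41% of all genes were called. It was DYNLL1, a light chain shared by several motors, at 0.49 ± 0.10 (SE, adjusted p = 0.0119 by limma), and the list had a median of 0.11 with 12 genes above 0. Without the 5-day S1 air library 6 were called, where 18.8% of all genes were: DYNLL1, DYNLT1, DYNLT3 and WDR34 higher, and the heavy chain DYNC1H1 (−0.24 ± 0.070) and the dynactin subunit DCTN1 (−0.21 ± 0.051) lower. The 8 recovery libraries alone also gave 4 higher and 2 lower. At 5 days DYNLL1 had 2174, 3163, 3899 and 3194 normalized counts in smoke cultures, against 4013, 3666, 4162 and 3892 in air cultures. The change of its smoke effect, recovery minus 5 days, was 0.86 ± 0.15 (SE, adjusted p = 0.00328 by limma). That of DYNLT3 was 0.66 ± 0.14 (adjusted p = 0.015), where 3.56% of all genes were called. Of 29 measured genes for other parts of the axoneme, SPAG16, a central pair protein, was called at recovery (0.42 ± 0.11, adjusted p = 0.0380), 28 lay above 0 and the median was 0.30. SPAG16 had 244, 256, 453 and 371 normalized counts in smoke recovery cultures, against 167, 223, 293 and 301 in air recovery cultures. Of 10 regulators of ciliogenesis none was called at recovery, 2 had an unadjusted p under 0.05, 9 lay above 0 and the median was 0.49. With the 8 recovery libraries alone, where 8.93% of all genes were called higher, 12 of the 29 axoneme genes and 4 of the 10 regulators (FOXJ1, RFX3, DEUP1 and GMNC) were called, all higher. SPAG16 was called without the 5-day S1 air library among the axoneme genes and E2F4, lower, among the regulators (−0.19 ± 0.064, adjusted p = 0.0391).

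Basal cell markers were called lower with smoke at recovery, and ciliated cell markers were called only in fits of fewer libraries. Of 6 measured ciliated markers, FOXJ1 among them, none was called at recovery in the fit over all libraries and 3 had an unadjusted p under 0.05, while all 6 lay above 0 with a median log2 difference of 0.49. With the 8 recovery libraries alone 5 of the 6 were called, where 8.93% of all genes were called higher. All 5 were higher (PIFO, SNTN, TPPP3, FOXJ1 and FAM183A, adjusted p = 0.000161 to 0.0312 by limma). Without the 5-day S1 air library PIFO was called (adjusted p = 0.0170 by limma), where 8.70% of all genes were called higher. The summed normalized count of the 6 ciliated markers was 7664, 6919, 17705 and 12911 in smoke recovery cultures of S1 to S4, against 4874, 5549.6, 11540 and 9292 in air recovery cultures, higher with smoke in each animal. The basal keratin gene KRT5 (−1.22 ± 0.15 SE, adjusted p = 0.000239 by limma), the integrin gene ITGB4 (−1.04 ± 0.15, adjusted p = 0.000885) and the receptor gene NGFR (−1.08 ± 0.17, adjusted p = 0.00208) were lower with smoke than in air at recovery. These 3 of 4 measured basal markers were called lower, where 2.28% of all genes were. The 4 basal markers summed to 29846 to 36333 in smoke cultures and 28554 to 52674 in air cultures at 5 days. At recovery they summed to 15215 to 33739 in smoke cultures, against 44384 to 53689 in air cultures, without overlap. Without the animal block KRT5 and ITGB4 were still called, with adjusted p values of 0.0173 and 0.00912, and NGFR, WDR92, DYNLL1 and SPAG16 were not. Of the lists for other cells, the 8 recovery libraries alone called the secretory gene BPIFB1 (0.37 ± 0.066 SE) and the immune gene LYZ (0.45 ± 0.085) higher. The immune gene CD68 was called lower there (−0.26 ± 0.081). The part of these cell markers in the dynein gene differences was not tested.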

How the data were processed

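Poly-A selected RNA libraries of 24 cultures were analysed from 1 deposited table. Its values are a normalized signal per gene made by the authors, called normalized counts here: the table is named as raw counts, but its values are not whole and whole reads could not be recovered from them. Per the submitters' processing notes, RSEM, Bowtie2, Trim Galore and FastQC were used, without versions. The genome build, annotation, strandedness and normalizing tool were not given in the sources used here; hence no positions or sequences are printed, and reads of antisense genes cannot be told from those of a member. All 24 columns matched a sample by the labels.

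Values were tested as log2(value + 1) with limma 3.58.1 in R 4.3.3 (trend), with 6 group means and animal as a block, over 14062 genes at 10 or more in at least 4 libraries. Tests were two-sided, with Benjamini-Hochberg adjustment within each of 9 comparisons. Shares of all genes with an unadjusted p under 0.05 are not given here. Counts at that cutoff therefore describe the fits and not the genes counted. Because the deposited values are not counts, no count model was used. The labels give the same 4 animals in each group, and their libraries deviate together. Groups hold 1 culture per animal. The block takes out each animal's mean level, so p-values of this fit do not cover the spread of levels between animals. They rest on the spread left within animals, in which culture and animal-specific responses cannot be separated. A pseudocount makes fold changes of low genes too small.

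The members and gene lists were chosen with earlier results of these data known. Values per library are given for members called in a smoke comparison and, at each time, for the member of each role with the widest difference; other members shown were chosen after their values were seen. Simulated data with 100 genes changed by 1 and 100 by 2 on the log2 scale, for the recovery comparison over 14062 genes, gave 77% and 88% recovered and 10 false calls among 175. The simulated noise was normal, independent and of equal spread in all libraries of a gene, with no outlying library. These rates do not cover smaller differences, such as those of the members at recovery. Alternatives were no block, a random block, only the libraries compared, other scalings, another pseudocount and other filters, and leaving out each animal or library. Figures were drawn with matplotlib 3.10.9.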

Additional observations from a re-analysis of the deposited data

Results flagged for a closer look

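Of 138 gene and group combinations of 4 libraries, 3 held a value that stood apart from the other 3 animals by Dixon's criterion, where chance gives about 1 in 20. All 3 were S3 libraries. At smoke recovery, DNAL4 was 395 normalized counts in S3, against 294 to 309 in the other animals, and DNAAF5 was 692, against 413 to 428. In air at 5 days ZMYND10 was 1450 in S3 (others 595 to 719). Over all 24 libraries no member was called for a smoke effect that differed between times; without the 5-day S1 air library DNAAF2 was, for recovery minus 5 days (0.48, adjusted p = 0.0299).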

How the results depend on the processing

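The fit with no replicate block called 0 members in all 9 comparisons, against 1 at recovery, 2 in air between 1 and 5 days, 2 in air between 5 days and recovery and 3 in smoke between 5 days and recovery with the block; a random block gave 0, 1, 0 and 0. Only the libraries compared gave 2 calls at 1 day, where 9.11% of all genes were called, and 6 at recovery, where 18.8% were. That setting gave 0 and 0 in the air comparisons and 3 in smoke between 1 and 5 days. Equal library totals, equal upper quartiles or no filter each gave 0 in air between 1 and 5 days, no filter 1 in smoke between 5 days and recovery, and pseudocount 10 gave 2 at recovery. At an adjusted p under 0.1 there were 1 at 5 days, 2 at recovery and 4 in air between 5 days and recovery. Equal totals moved the median of all genes by −0.145 in air between 1 and 5 days and by 0.155 for the change of the smoke effect between these times, gave a median over members of −0.048 at 1 day and turned DNAI2 at 5 days to 0.023.

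Leaving out 1 animal or library at a time gave 0 to 3 calls at recovery, 0 to 1 for the change of the smoke effect between 5 days and recovery, 0 to 3 and 0 to 4 in the air comparisons, and 0 to 2 and 0 to 5 in the smoke ones. The share of all genes called moved too: at recovery it was 3.41% with all libraries and 18.8% without the 5-day S1 air library. Shares for the other counts of this section are not given here, so those counts describe the fits and not the members. Over the same omissions the medians over members ran from −0.097 to 0.16 at 1 day, −0.034 to 0.26 at 5 days, −0.017 to 0.40 at recovery, −0.029 to 0.31 and −0.30 to 0.26 for the changes of the effect, and −0.19 to 0.11 in air between 1 and 5 days. Values that changed sign ran from −0.46 to 0.029 for DNAH8 and −0.079 to 0.067 for CCDC39 at 1 day, and from −0.11 to 0.94 for DNAH5 and −0.15 to 0.053 for DNAI2 at 5 days. Omitting the 5-day S1 air library with no replicate block, a setting chosen after seeing the data, called 0 members in every comparison and gave medians of −0.32 at 5 days, −0.31 and 0.39 for the changes of the effect, and 0.34 in air between 1 and 5 days, with DNAH5 at −0.32, CCDC39 at −0.15 and DNAAF1 at −0.14 at 5 days; that fit leaves 3 animals against 4 unpaired. The cause of the other changes was not tested. DNAH8 was at 10 or more in 9 libraries, so its differences rest on low values, and an effect of depth was not tested.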
